A study of Mus musculus with 140 samples.

Results

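The miR-17-92 cluster is a group of microRNAs (miRNAs) cut from 1 primary transcript, and its 7 mature members named here are mmu-miR-17-5p, mmu-miR-17-3p, mmu-miR-18a-5p, mmu-miR-19a-3p, mmu-miR-20a-5p, mmu-miR-19b-3p and mmu-miR-92a-3p. They were chosen by name, not by a measured value, and all 7 were found among the 1474 miRNAs counted. The study sequenced small RNA of kidney from male wild-type C57BL6/OlaHsd mice in a sepsis model, with the stated purpose of finding miRNAs of renal microvessels that respond to sepsis with acute kidney injury. Sepsis was induced by cecal ligation and puncture (CLP), in which gut bacteria leak into the abdomen, and sham-operated mice were the controls at the same times. There were 7 groups of 4 mice, namely healthy mice with no operation (0 h) and CLP and sham mice at 4 h, 24 h and 72 h, which makes 28 mice. Each mouse gave 5 libraries, 140 in all. These were glomeruli, arterioles, post-capillary venules and peritubular capillaries, each collected by laser microdissection from kidney cortex, and whole kidney, which was not microdissected.

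A miRNA guides a silencing complex to messenger RNAs that pair with its seed, and members that share a seed can share targets. The cluster is best known as an oncogene whose transcription is driven by Myc and E2F factors, and the pro-apoptotic gene Bim is among its known targets. In the kidney it is needed for the normal number of nephron progenitors during development, and raised levels have been tied to cyst growth in mice, while miR-92a is known to restrain vessel growth by endothelial cells. Although 1 transcript carries all members, each hairpin is processed separately, so that the mature levels need not be equal.

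The mature sequences are shown because they fix which members share a seed and which members have a near-identical copy elsewhere. Sequences are from RefSeq (GRCm38.p6), written 5′ to 3′, and the capitals mark the seed, bases 2 to 8. All 7 members were matched.
miR-17-5p: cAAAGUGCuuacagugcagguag
miR-20a-5p: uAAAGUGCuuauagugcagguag
miR-18a-5p: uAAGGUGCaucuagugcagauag
miR-19a-3p: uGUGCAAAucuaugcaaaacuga
miR-19b-3p: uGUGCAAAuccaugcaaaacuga
miR-92a-3p: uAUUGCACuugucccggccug
miR-17-3p: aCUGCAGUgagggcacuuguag
There are 5 distinct seeds among the 7 members. MiR-17-5p and miR-20a-5p share 1 seed and differ at C1U and C12U, where positions are counted from the 5′ end and the base of the first-named miRNA comes first. MiR-19a-3p and miR-19b-3p share another and differ by U11C alone. MiR-18a-5p differs from miR-17-5p at 6 positions, 1 of them in the seed. MiR-17-3p is the opposite arm of the miR-17 hairpin.

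Several members have close copies in the paralogous miR-106a-363 cluster.
miR-106a-5p: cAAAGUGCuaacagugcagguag
miR-20b-5p: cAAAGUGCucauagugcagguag
miR-18b-5p: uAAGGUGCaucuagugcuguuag
MiR-17-5p differs from miR-106a-5p by U10A alone, miR-20a-5p from miR-20b-5p by U1C and U10C, and miR-18a-5p from miR-18b-5p by A18U and A20U. The sources used here do not give how reads that match several miRNAs were counted, so counts of these pairs may have been split or shared.

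On GRCm38.p6 the 6 hairpins lie within 836 bases of the plus strand of chromosome 14, all in exon 2 (115043271 to 115046727) of the non-coding host gene Mir17hg (115042879 to 115046727). Their order is Mir17 (115043671 to 115043754), Mir18 (115043851 to 115043946), Mir19a (115044000 to 115044081), Mir20a (115044157 to 115044263), Mir19b-1 (115044305 to 115044391) and Mir92-1 (115044427 to 115044506). MiR-19b-3p and miR-92a-3p are also made, with the same mature sequence, from Mir19b-2 (52741983 to 52742066) and Mir92-2 (52741838 to 52741928) on the minus strand of chromosome X. The 2 sources cannot be told apart for these members.

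Libraries held 1412288 to 7921184 miRNA counts in whole kidney, 77258 to 1352025 in glomeruli, 19307 to 569283 in arterioles, 15148 to 567040 in venules and 4215 to 49456 in peritubular capillaries. The column headings come in 2 styles, 1 for the 12 healthy and 4 h mice and 1 for the 16 mice of 24 h and 72 h, so a difference between these times cannot be told apart from one between the 2 sets, and compartment results below are also given within each set. The smooth muscle miRNAs miR-143-3p and miR-145a-5p took a median of 52.4% of arteriole counts and 4.05% to 10.1% in the other 4 compartments. Both miR-126a arms, the endothelial markers, were detected in all 140 libraries and were higher in arterioles and in glomeruli than in the other microdissected compartments, with 2 of 2 past the test each time. In peritubular capillaries and in venules 2 of 2 endothelial markers were lower and 5 of 5 epithelial markers higher, and in venules 5 of 5 erythroid markers were higher. The endothelial markers thus go against the capillary and venule labels, which are kept below as names of the libraries.

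Levels are in CPM, counts scaled to a common library total of miRNA counts, after TMM, a factor per library that aligns most miRNAs. Levels across compartments use 1 scale over all 140 libraries, and levels of CLP and sham mice use a scale within each compartment. Reads of mature miRNAs are nearly equal in length, but kits capture some sequences better than others, so an order of members by CPM need not be their order in the cell.

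MiR-92a-3p and miR-19b-3p made up nearly all of the cluster's counts in every compartment. On the 140-library scale whole kidney held a median of 20481 CPM of miR-92a-3p, 5278 of miR-19b-3p, 378 of miR-17-5p, 307 of miR-19a-3p, 201 of miR-20a-5p, 115 of miR-17-3p and 11.4 of miR-18a-5p. MiR-18a-5p, the lowest member, had 5 to 126 counts per whole kidney library.

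**Figure D1:**
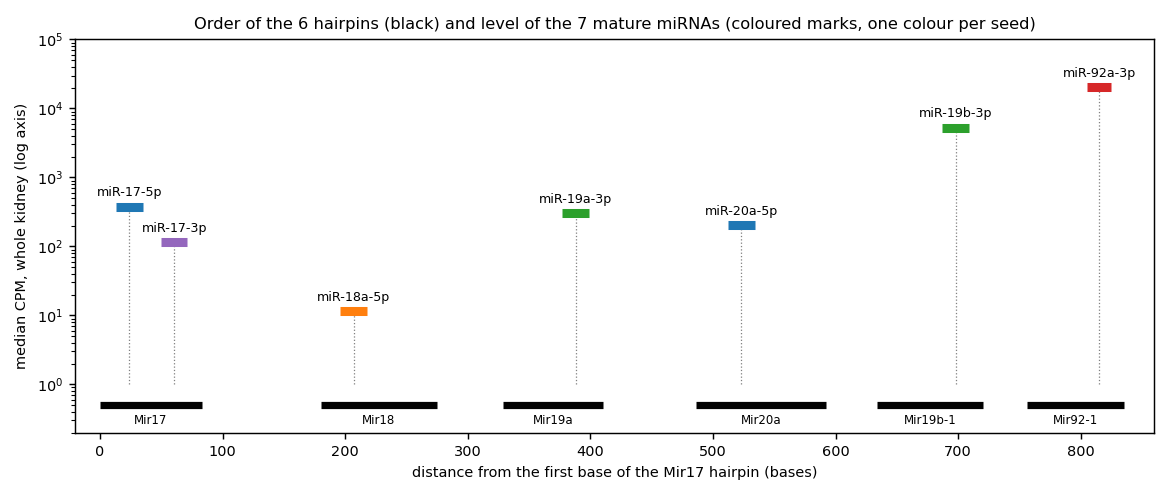
Median level of each member in whole kidney (CPM over 28 mice, log axis) against the distance of its mature sequence from the first base of the Mir17 hairpin, in bases; black bars are the 6 hairpins and 1 colour stands for 1 seed. MiR-19b-3p and miR-92a-3p, the members with a second gene copy on chromosome X, lie highest at 5278 and 20481 CPM. The part of that copy in their level was not tested.

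The cluster took 2.68% ± 0.313 of all miRNA counts in whole kidney (SD, n = 28 mice), 2.75% ± 0.526 in peritubular capillaries, 2.67% ± 0.376 in venules, 2.10% ± 0.220 in glomeruli and 0.616% ± 0.157 in arterioles. The highest arteriole library, at 0.933%, lay below the lowest library of the other 4 compartments, at 1.45% in peritubular capillaries. This share is relative to all miRNAs and is low where other miRNAs, such as miR-143-3p in arterioles, take many counts.

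Arterioles held the smallest share of the cluster and less of 3 members than the other microdissected compartments. MiR-92a-3p, which targets integrin alpha 5 messenger RNA in endothelial cells, ranged from 1927 to 10409 CPM in the 28 arteriole libraries (median 5274), against 6545 to 18366 in glomeruli (median 12616), 4460 to 33126 in peritubular capillaries (median 16243) and 11217 to 26615 in venules (median 18958). In no mouse did arterioles hold more of it than glomeruli or venules, and in 1 of 28 more than capillaries. Arterioles were lower than the mean of the other 3 by a log2 difference of -1.20 (SE 0.0793, edgeR adjusted p = 2.17e-24). Within the sets the differences were -1.38 in healthy and 4 h mice and -1.09 in 24 h and 72 h mice. In such bulk libraries fewer cells of a type and less of a miRNA per cell cannot be told apart.

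MiR-20a-5p, which carries the miR-17 seed, was also lower in arterioles, with a median of 29.1 CPM and 8 of 28 libraries at 0, against medians of 123 CPM in glomeruli, 149 in peritubular capillaries and 168 in venules. The arteriole groups reached 208 CPM at most and overlapped with every other compartment, and arterioles exceeded glomeruli in 4, capillaries in 6 and venules in 5 of 28 mice. The log2 difference was -2.42 (SE 0.525, edgeR adjusted p = 6.78e-05), and without replicate 4 it was -1.93 and did not pass (edgeR adjusted p = 1). This value depends on groups whose libraries are all at 0, and a fit with additive terms for compartment and mouse, chosen after seeing the data, gave -1.68. The within-set differences were -3.33 in healthy and 4 h mice and -1.38 in 24 h and 72 h mice.

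MiR-19b-3p, the most abundant carrier of the miR-19 seed, had a median of 2329 CPM in arterioles, against 3599 in glomeruli, 5582 in peritubular capillaries and 4361 in venules. Arterioles were lower, at -0.44 on the log2 scale (SE 0.0737, edgeR adjusted p = 4.15e-07), and at -0.44 and -0.47 within the 2 sets. They held more than glomeruli in 3, than capillaries in 2 and than venules in 3 of 28 mice. In healthy mice alone it was at -0.09 (edgeR adjusted p = 0.862). The other 4 members did not pass the test in arterioles with edgeR, whereas DESeq2 called 2 of them lower. MiR-17-5p was at -0.63 (edgeR adjusted p = 0.228), with the within-set values 0.15 in healthy and 4 h mice and -1.26 (edgeR adjusted p = 0.00241) in 24 h and 72 h mice, and at -0.81 with DESeq2 (adjusted p = 0.0154). MiR-19a-3p was at -0.39 (edgeR adjusted p = 0.0741), at -0.54 with RLE factors (edgeR adjusted p = 0.00930) and at -0.55 with DESeq2 (adjusted p = 0.000201), but at 0.34 in healthy mice alone. In all, 3 of 7 members were lower and 0 higher in arterioles with edgeR. It called 16.7% of the 383 miRNAs tested lower and 21.1% higher, with a median difference of -0.15. DESeq2 called 5 of 7 members lower, and 203 of the 383 miRNAs in either direction, against 145 with edgeR. Beside these values, the smooth muscle markers took 40.3% to 63.5% of arteriole counts, and in arterioles 5 of 5 epithelial markers were lower (-4.35 to -2.97) and 2 of 3 tubular ones, miR-192-5p (-3.04) and miR-194-5p (-4.22). Their part in the result was not tested.

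In venules 2 members, miR-92a-3p and miR-19a-3p, passed the test as higher. MiR-92a-3p was higher in venules than in the mean of the other 3 by a log2 difference of 0.69 (SE 0.0708, edgeR adjusted p = 2.93e-14), and by 0.85 in healthy and 4 h mice and 0.57 in 24 h and 72 h mice. MiR-19a-3p ranged from 292 to 1410 CPM in venules (median 544), against medians of 256 in arterioles, 305 in glomeruli and 417 in peritubular capillaries. It was higher in venules by 0.56 (SE 0.168, edgeR adjusted p = 0.00537). It kept that sign within both sets, at 0.69 and 0.48, but did not pass the test in either alone. It also lost the call without replicate 1 (0.46) or replicate 4 (0.48), and in healthy mice alone it was at 0.17. Of the 7 members 2 were higher and 0 lower in venules, where 25.6% of all miRNAs tested were higher and 10.4% lower. The median difference over all miRNAs tested was 0.36 there. Markers of other cell types were higher in venules too, with 5 of 5 erythroid (1.42 to 2.80), 5 of 5 epithelial (1.66 to 2.52), 4 of 5 leukocyte (0.43 to 1.93) and 2 of 3 tubular miRNAs (1.48 and 2.16). Their part in the result was not tested.

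In glomeruli 3 members passed the test in edgeR as higher and 0 as lower, where 41.8% of all miRNAs tested were higher and 11.7% lower. MiR-19a-3p, at -0.13 there, was called lower by DESeq2, at -0.28 (adjusted p = 0.0441). A fit together with whole kidney also called it lower, at -0.47 (edgeR adjusted p = 0.00901). MiR-17-3p, the opposite arm of the miR-17 hairpin, was detected in all 28 glomerular libraries at 8.21 to 236 CPM (median 87.8), against 12 arteriole, 21 capillary and 5 venule libraries of 28 at 0. Capillary libraries were shallower, at a median of 22165 counts against 253632 in glomeruli. Venules were near glomeruli, at a median of 82.8 CPM, and glomeruli exceeded them in 15 of 28 mice. With additive terms glomeruli differed from venules by 0.10 (edgeR adjusted p = 0.907). In venules miR-17-3p did not pass, but did so when fitted with whole kidney (1.64, edgeR adjusted p = 0.0121). The log2 difference of miR-17-3p in glomeruli was 1.67 (SE 0.548, edgeR adjusted p = 0.00732). The sign held but the call was lost within each set, at 1.84 (edgeR adjusted p = 0.0575) in healthy and 4 h mice and 1.43 (edgeR adjusted p = 0.0867) in 24 h and 72 h mice, without replicate 1, at 1.44 (edgeR adjusted p = 0.0530), and in libraries of 100000 counts or more, at 1.04 (edgeR adjusted p = 0.132). MiR-92a-3p was higher in glomeruli by 0.45 (SE 0.0714, edgeR adjusted p = 6.12e-08) and miR-19b-3p by 0.22 (SE 0.0704, edgeR adjusted p = 0.00571). Both values lay below the median difference over all 383 miRNAs tested there, 0.48. The share of members called higher was near that of all miRNAs. The mean used for comparison includes arterioles, which were low for both members. On the scale over all libraries glomeruli exceeded capillaries in 7 and venules in 1 of 28 mice for miR-92a-3p. For miR-19b-3p they did so in 2 and 10. Glomerular medians, 12616 and 3599 CPM, lay below those of capillaries and venules. For miR-92a-3p the fitted difference to capillaries had the opposite sign, as given below. MiR-92a-3p was at 0.59 in healthy and 4 h mice and 0.31 in 24 h and 72 h mice, past the test in both, and it lost the call, at 0.12 (edgeR adjusted p = 0.206), in 1 of 15 alternatives, a fit together with whole kidney that was added after seeing the data. MiR-19b-3p lost it in both sets, at 0.24 (edgeR adjusted p = 0.107) and 0.16 (edgeR adjusted p = 0.101), and with DESeq2 and RLE, at 0.07 each, and was at -0.12 (edgeR adjusted p = 0.178) in the fit with whole kidney.

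Peritubular capillaries, the shallowest libraries, gave the least firm values. MiR-17-3p had 0 counts in 21 of 28 capillary libraries and was lower, with a log2 difference of -2.42 (SE 0.870, edgeR adjusted p = 0.0151), with -1.37 (edgeR adjusted p = 0.0507) under additive terms. Within the sets it did not pass, at -2.67 (edgeR adjusted p = 0.0717) in healthy and 4 h mice and -1.97 (edgeR adjusted p = 0.129) in 24 h and 72 h mice, nor without replicate 1, 2 or 4. MiR-19b-3p was higher by 0.21 (SE 0.0717, edgeR adjusted p = 0.00851) and by 0.70 when fitted together with whole kidney. Within the sets it was at 0.15 (edgeR adjusted p = 0.361) in healthy and 4 h mice and 0.33 (edgeR adjusted p = 0.000606) in 24 h and 72 h mice, and without replicate 2 it was at 0.18 (edgeR adjusted p = 0.102). MiR-92a-3p was at 0.06 and did not pass in capillaries, but did so with DESeq2 (0.33, adjusted p = 1.15e-05) and with RLE factors (0.33, edgeR adjusted p = 6.24e-05), as in the fit with whole kidney (0.55, edgeR adjusted p = 4.86e-11). In healthy and 4 h mice it was at -0.06 and in 24 h and 72 h mice at 0.20 (edgeR adjusted p = 0.0495). MiR-20a-5p, at 0.78 and not past the test, passed there with DESeq2 (0.94, adjusted p = 0.0105) and RLE (1.05, edgeR adjusted p = 0.0372). Of all miRNAs tested 15.7% were higher and 34.7% lower in capillaries with edgeR, beside 1 and 1 of 7 members. The median difference over all miRNAs tested was -0.85. DESeq2 called 3 and 2 of 7 members, and 244 of the 383 miRNAs in either direction, against 193 with edgeR. Of the markers, 3 of 3 tubular and 5 of 5 epithelial ones were higher in capillaries. The endothelial, smooth muscle and erythroid markers were all lower there, as were most leukocyte ones. The part of these markers in the members' values was not tested.

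MiR-18a-5p could not be placed firmly among the microdissected compartments, since 23 of 28 arteriole, 23 capillary, 16 venule and 13 glomerular libraries held 0 counts of it. With edgeR it passed in none of the 4 compartments. DESeq2 called it lower in capillaries (-5.14, adjusted p = 0.000311) and higher in glomeruli (4.49, adjusted p = 0.00171), and within 24 h and 72 h mice edgeR gave the opposite signs, 0.61 and -0.57, so no order is read for it.

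**Figure D2:**
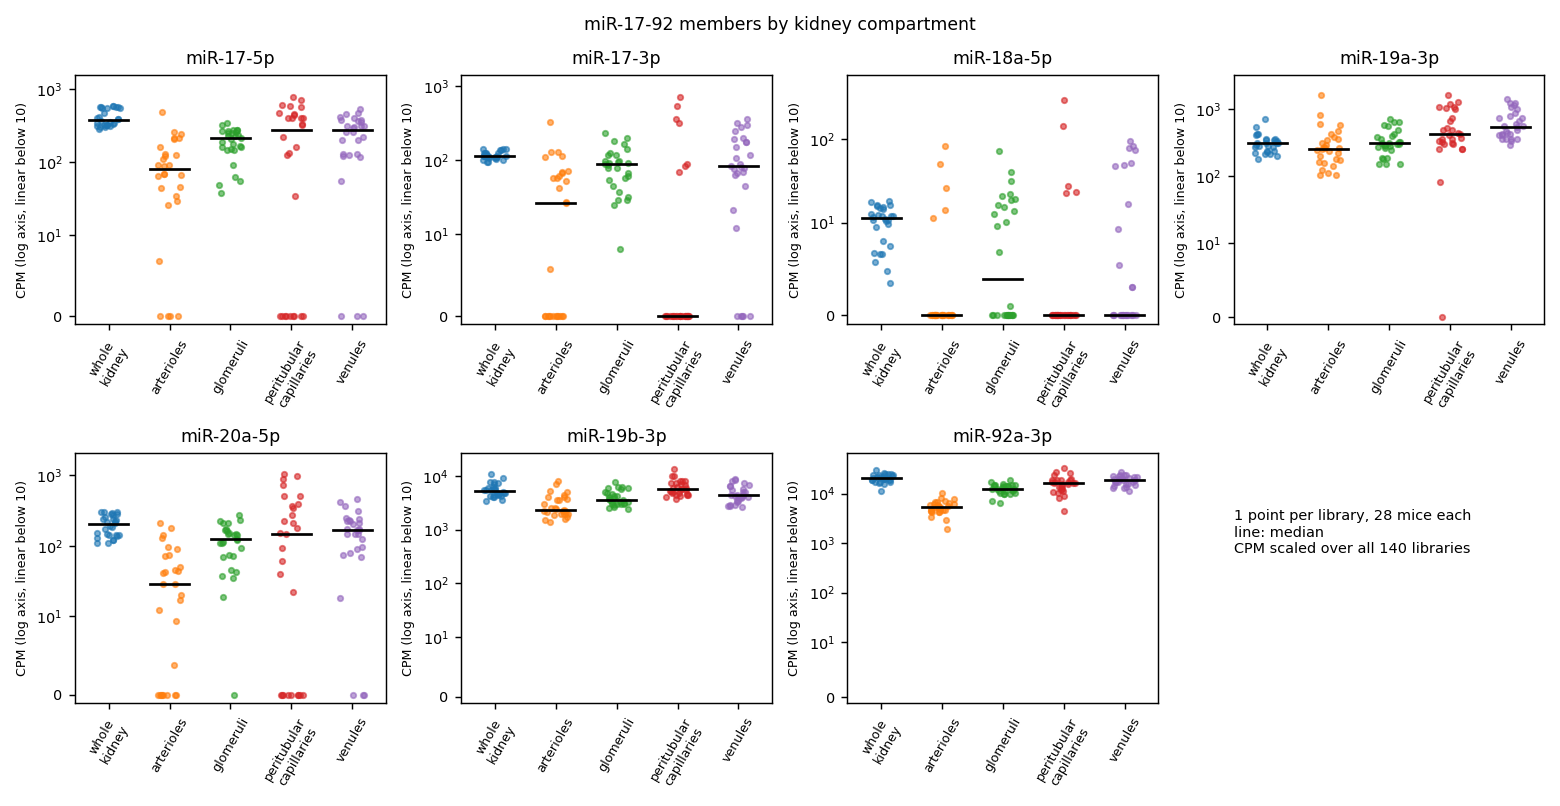
Level of each member (CPM on the 140-library scale, log axis with a linear stretch below 10) in whole kidney and the 4 microdissected compartments; each point is 1 library, 28 mice per compartment, and the line is the median. Arterioles lie lowest for miR-92a-3p, at a median of 5274 CPM, and points on the 0 line are libraries without a count.

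Pairs of compartments, compared after seeing the data, give the order of neighbours, and over the 6 microdissected pairs 48.8% of all tests passed. For miR-92a-3p the log2 difference of arterioles was -1.24 to glomeruli, -0.94 to capillaries and -1.41 to venules, each past the test. Capillaries were below venules, at -0.47 (edgeR adjusted p = 9.87e-06), whereas glomeruli and venules, at -0.18 (edgeR adjusted p = 0.100), did not differ past the threshold. Glomeruli were above capillaries by 0.30 (edgeR adjusted p = 0.00270) in that fit, yet lay above them on the 140-library scale in 7 of 28 mice, so their order turns with the scale. For miR-20a-5p the arterioles were below each of the others, at -2.40 to -2.45, and for miR-19a-3p both arterioles, at -0.71 (edgeR adjusted p = 0.00392), and glomeruli, at -0.51 (edgeR adjusted p = 0.0337), were below venules. For miR-17-3p glomeruli exceeded capillaries by 3.07 (edgeR adjusted p = 0.00250) and arterioles lay below glomeruli, at -1.66 (edgeR adjusted p = 0.0379), while capillaries lay below venules, at -2.79 (edgeR adjusted p = 0.0120). With many libraries at 0, the size of these folds depends on the fit. Additive terms gave 1.91, -1.50 and -1.81 for these pairs of miR-17-3p. For miR-20a-5p in arterioles they gave -1.65 to -1.74, and all of these passed the test.

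Whole kidney held more of 6 members, and less of miR-19a-3p, than the mean of the 4 microdissected compartments, and all 7 passed the test. Of the 445 miRNAs tested 60.9% were higher in whole kidney and 10.1% lower, and the median difference over all of them was 1.14 against 1.26 over the 7 members, so the members as a whole lay near the background. Whole kidney was not microdissected and was sequenced deeper, and tissue and collection cannot be told apart.

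MiR-17-5p, the member that gives the cluster its name, ranged from 283 to 591 CPM in whole kidney with a median of 378, against medians of 79.6 in arterioles, 212 in glomeruli, 273 in capillaries and 279 in venules. Its glomerular level was above that of whole kidney in 0 of 28 mice and its arteriole level in 1. The log2 difference was 1.29 (SE 0.236, edgeR adjusted p = 7.73e-07), with 1.13 and 1.22 within the 2 sets. MiR-20a-5p, with the same seed, was higher by 1.26 (SE 0.296, edgeR adjusted p = 9.36e-05), with 1.77 and 0.69 within the sets. In healthy mice alone neither passed, at 0.69 (edgeR adjusted p = 0.486) for miR-17-5p and 0.43 (edgeR adjusted p = 0.745) for miR-20a-5p. MiR-92a-3p was higher by 0.82 (SE 0.0673, edgeR adjusted p = 2.90e-21), with 0.76 and 0.65. By pair it exceeded arterioles by 1.97, glomeruli by 0.73 and capillaries by 0.40, and venules by 0.17 (edgeR adjusted p = 0.0918), where 65.2% of all tests of the 4 such pairs passed.

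The 2 members with the miR-19 seed had opposite signs. MiR-19a-3p was lower in whole kidney, at -0.42 (SE 0.152, edgeR adjusted p = 0.00993), at 180 to 710 CPM (median 307), against medians of 544 in venules and 417 in capillaries. Venules exceeded whole kidney in 28 of 28 mice and capillaries in 23. Within the sets the difference was -0.83 (edgeR adjusted p = 0.0116) in healthy and 4 h mice and -0.31 (edgeR adjusted p = 0.128) in 24 h and 72 h mice, and without replicate 1 it was -0.25 (edgeR adjusted p = 0.212) and without replicate 4 -0.33 (edgeR adjusted p = 0.108). MiR-19b-3p was at 0.38 (SE 0.0660, edgeR adjusted p = 2.21e-07), but that sign was lost under other scalings, at -0.08 both with RLE size factors in edgeR and with DESeq2, in healthy mice alone it was -0.19, and without replicate 3 it was at 0.09 (edgeR adjusted p = 0.304). RLE moved the median of all miRNAs by -0.40 and DESeq2 by -0.98. MiR-17-3p was higher by 1.44 (SE 0.443, edgeR adjusted p = 0.00262) and miR-18a-5p by 2.92 (SE 0.761, edgeR adjusted p = 0.000474), the last at 1.20 (edgeR adjusted p = 0.0520) with additive terms. Both calls were lost with DESeq2, at 0.58 (adjusted p = 0.147) for miR-17-3p and 0.28 (adjusted p = 0.674) for miR-18a-5p, and that of miR-17-3p with RLE factors, at 1.00 (edgeR adjusted p = 0.0707). Within the sets miR-17-3p was at 1.36 (edgeR adjusted p = 0.0907) in healthy and 4 h mice and 1.26 (edgeR adjusted p = 0.0444) in 24 h and 72 h mice, where miR-18a-5p was at 1.31 (edgeR adjusted p = 0.102).

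The make-up of the cluster differed between the 2 sets of mice in every compartment. In whole kidney miR-92a-3p made up 79.1% of the members' counts in the 16 mice of 24 h and 72 h, against 70.1% in the 12 healthy and 4 h mice, and in arterioles 71.0% against 47.2%. MiR-19b-3p made up 16.8% against 26.2% in whole kidney and 24.0% against 45.9% in arterioles. In whole kidney miR-17-5p averaged 491 ± 94.6 CPM in 24 h and 72 h mice, against 325 ± 21.2 in healthy and 4 h mice, and miR-20a-5p 250 ± 40.8 against 136 ± 21.2 (SD, n = 16 and 12). MiR-19b-3p went the other way, at 4587 against 6911 CPM, and miR-19a-3p at 262 against 393. These values describe the sets and are given with no test.

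**Figure D3:**
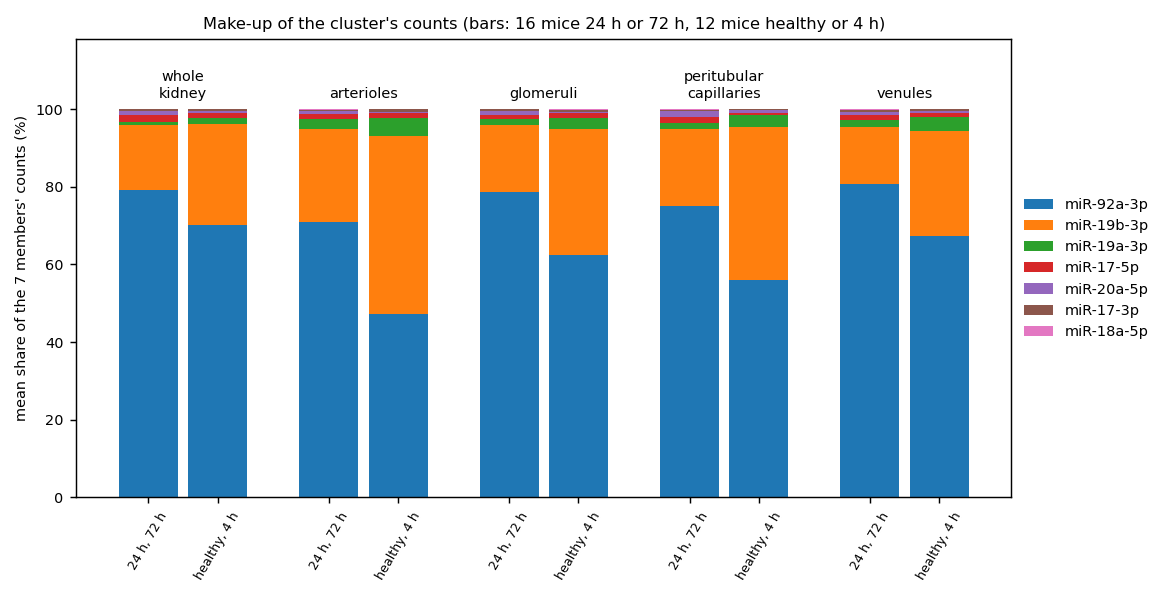
Mean share of each member in the summed counts of the 7 members (percent, stacked bars) in whole kidney and the 4 microdissected compartments, separately for 16 mice of 24 h and 72 h and for 12 healthy and 4 h mice. In each compartment miR-92a-3p has the larger share in the 24 h and 72 h mice, from 71.0% in arterioles to 80.9% in venules, against 47.2% and 67.4% in healthy and 4 h mice.

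The ratio of the arms of the miR-17 hairpin also differed between sets. MiR-17-5p counts were 4.32 ± 0.891 times those of miR-17-3p in whole kidney of the 24 h and 72 h mice, against 2.71 ± 0.357 in healthy and 4 h mice. The ratio of miR-19b-3p to miR-19a-3p, in contrast, was 17.7 against 17.9. Over 35 group means of log2 CPM (7 groups in 5 compartments, which share mice and depth), r was 0.82 between miR-17-5p and miR-20a-5p and 0.62 between miR-19a-3p and miR-19b-3p, but -0.13 between miR-17-5p and miR-19b-3p. MiR-20a-5p and miR-92a-3p, of different seeds, were at 0.74.

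Between CLP and sham mice few member levels differed past the test at the precision of 4 mice per group. Of 90 tests of members (CLP against sham in 5 compartments at 3 times), 1 passed, and 0.507% of the 4932 tests over all miRNAs did so. MiR-18a-5p was tested in whole kidney alone, and miR-17-3p in all compartments but peritubular capillaries. There were 48 of 90 log2 fold changes above 0 and 6 with an unadjusted p under 0.05, and DESeq2 called 3.

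The member that passed was miR-17-5p in whole kidney at 72 h. It stood at 617, 524, 469 and 613 CPM in the CLP mice, against 385, 380, 418 and 298 CPM in the sham mice (scale within whole kidney). All 4 CLP mice lay above all 4 sham mice. The means were 556 ± 71.9 CPM in CLP and 370 ± 51.4 CPM in sham kidneys (SD, n = 4 each). The log2 fold change was 0.59 (SE 0.149, edgeR adjusted p = 0.0280), in a comparison where 1.66% of all miRNAs were higher. It was 0.55 with DESeq2 (adjusted p = 0.00803), and 0.54 when miR-17-5p and its near-identical copy were summed (edgeR adjusted p = 0.0424). The call is fragile: without 1 mouse at a time the fold change was 0.48 to 0.63 but passed in 1 of 8 cases, namely without CLP replicate 3. The reason for this was not tested.

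The sham level at 72 h was itself low for that set. In whole kidney miR-17-5p averaged 315 ± 10.9 CPM in healthy mice, then 299 ± 35.6 in CLP and 307 ± 13.3 in sham mice at 4 h, 516 ± 81.3 in CLP and 526 ± 111 in sham mice at 24 h, and 556 ± 71.9 and 370 ± 51.4 at 72 h. At 4 h and 24 h the log2 fold changes were -0.04 and -0.03, within 1 standard error of 0. The CLP effect at 72 h minus that at 24 h was 0.61 (unadjusted p = 0.00669, edgeR adjusted p = 0.414). The log2 difference of sham mice at 72 h to sham mice at 24 h was -0.51 (edgeR adjusted p = 0.0959).

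The other members did not pass at 72 h in whole kidney, and they did not all have the sign of miR-17-5p. MiR-20a-5p, its seed partner, had 301, 281, 207 and 308 CPM in CLP mice, against 222, 209, 232 and 162 CPM in sham mice, a log2 difference of 0.41 (SE 0.168, edgeR adjusted p = 0.265), and 1 CLP mouse lay within the sham range. MiR-18a-5p averaged 15.3 ± 3.88 CPM against 10.1 ± 4.81 CPM, with 0.59 (SE 0.284, edgeR adjusted p = 0.380). MiR-19a-3p averaged 245 ± 21.6 CPM in CLP and 313 ± 12.2 CPM in sham mice, with all CLP mice below all sham mice, and the log2 difference, -0.35 (SE 0.232, edgeR adjusted p = 0.602), did not pass. A fit on these 8 libraries alone gave -0.40 (edgeR adjusted p = 0.0328). MiR-19b-3p was at -0.26, and miR-92a-3p and miR-17-3p were both at 0.13, none of them past the test. The ratio of miR-17-5p to miR-19b-3p within a library, which needs no scaling between libraries, was 0.125 ± 0.0213 in CLP mice and 0.0693 ± 0.0105 in sham mice at 72 h, and that of miR-17-5p to miR-17-3p was 5.0 ± 0.827 against 3.64 ± 0.537. At 24 h the ratio to miR-19b-3p was 0.121 ± 0.0260 in CLP and 0.130 ± 0.0379 in sham mice, both near the CLP value at 72 h. The ratio of miR-17-5p to miR-20a-5p at 72 h was 2.04 ± 0.163 in CLP and 1.80 ± 0.0443 in sham mice. All of these ratios use the member that passed.

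Summed marker levels overlapped between CLP and sham kidneys at 72 h for all 6 marker lists. The 5 leukocyte miRNAs summed to 1226 to 3730 CPM in CLP and 1379 to 1875 CPM in sham kidneys (140-library scale), and miR-223-3p, a neutrophil miRNA, was at 0.66 (edgeR adjusted p = 0.0501). The 3 tubular miRNAs summed to 6538 to 9198 CPM in CLP and 8702 to 11542 CPM in sham kidneys. Of the 22 marker miRNAs 0 passed in edgeR, with 3 at an unadjusted p under 0.05, and DESeq2 called 1 of them, miR-223-3p (adjusted p = 0.0301). Their part in the miR-17-5p result was not tested.

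**Figure D4:**
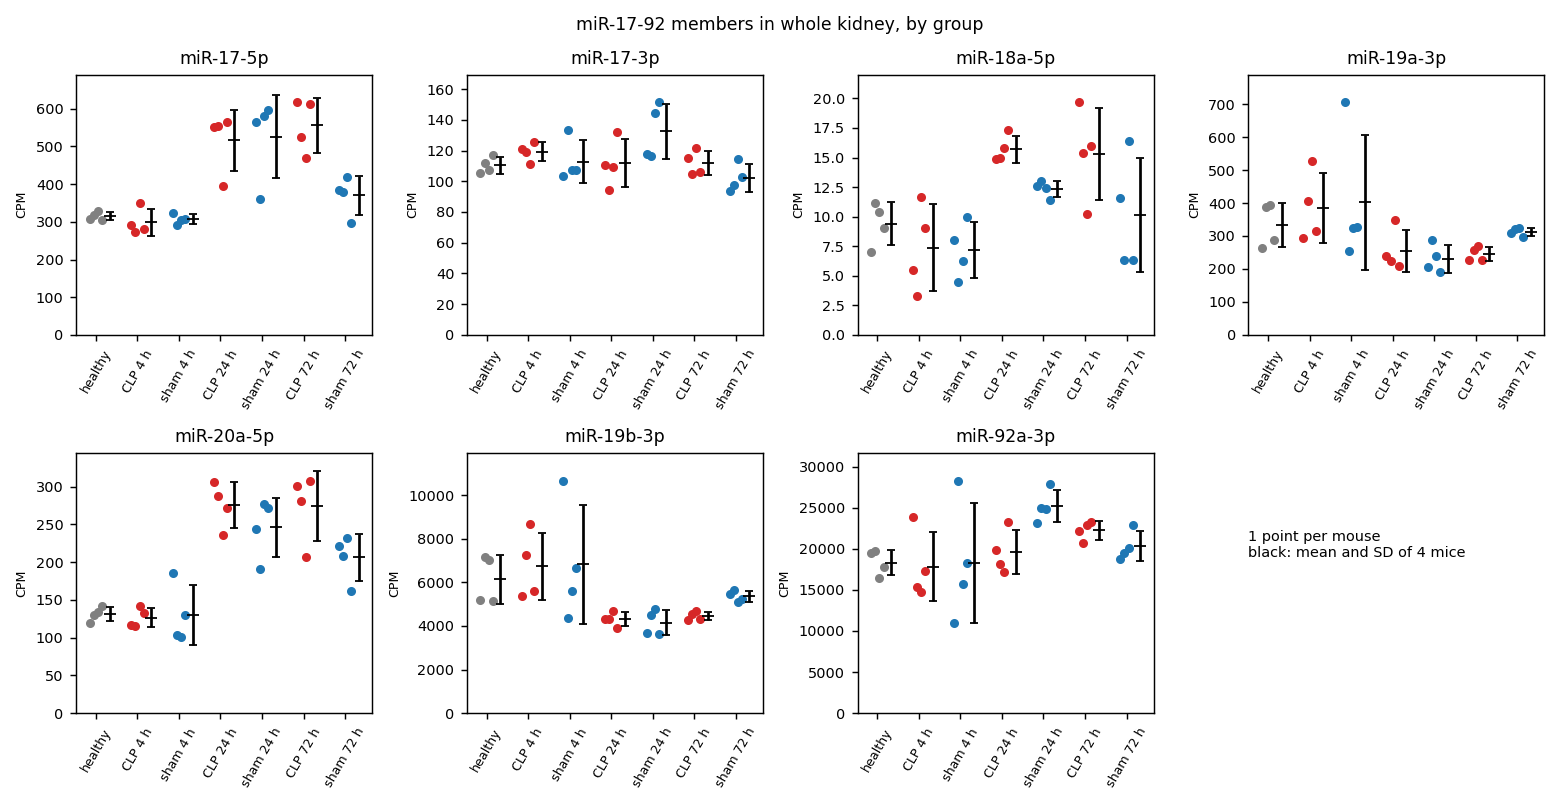
Level of each member in whole kidney (CPM, scale within whole kidney) in healthy mice and in CLP and sham mice at 4 h, 24 h and 72 h; each point is 1 mouse and the black marks are the mean and SD of 4 mice. For miR-17-5p at 72 h the CLP mice lie between 469 and 617 CPM, above the sham mice, while at 24 h both groups overlap.

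In the microvessels 0 of 69 member tests of CLP passed in edgeR, with 3 at an unadjusted p under 0.05 and 2 called by DESeq2. All of these were in glomeruli. The 3 of 69 are near what a threshold of 0.05 gives by chance. DESeq2 called 15 of all 338 miRNAs tested in glomeruli at 4 h, against 2 with edgeR. In glomeruli at 4 h miR-92a-3p had 16636, 13576, 17481 and 16264 CPM in CLP mice, against 12865, 8906, 12991 and 8315 CPM in sham mice. All 4 CLP mice lay above all 4 sham mice, while the fitted log2 difference was 0.57 (SE 0.176, edgeR adjusted p = 0.0974). DESeq2 gave 0.56 (adjusted p = 0.0352). MiR-20a-5p in the same libraries had 50.8, 51.2, 26.2 and 0 CPM in CLP mice, against 163, 93.5, 44.9 and 168 CPM in sham mice, where 2 CLP mice lay above the lowest sham mouse. Its log2 fold change was -1.80 (SE 0.622, edgeR adjusted p = 0.128), or -1.84 with DESeq2 (adjusted p = 0.0491).

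In glomeruli at 24 h miR-19a-3p had 289, 318, 360 and 367 CPM in CLP mice, against 198, 214, 171 and 163 CPM in sham mice. The groups did not overlap, and the log2 difference, 0.84 (SE 0.306, edgeR adjusted p = 0.202), did not pass. At 4 h and 72 h it was -0.38 and 0.25. In arterioles at 4 h miR-20a-5p had 0 counts in all 4 sham libraries, so its fitted fold change is no bound and is not read.

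The precision set what could be seen. For miR-19b-3p the 15 log2 fold changes ran from -0.26 to 0.32 with standard errors of 0.179 to 0.274, and for miR-92a-3p from -0.36 to 0.57, with 11 of 15 above 0. For miR-17-5p and miR-20a-5p the median standard errors were 0.852 and 0.856 over the 15 comparisons, with 0.149 and 0.167 as the lowest, in whole kidney, and 1.82 and 2.88 as the highest, in microdissected compartments.

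**Figure D5:**
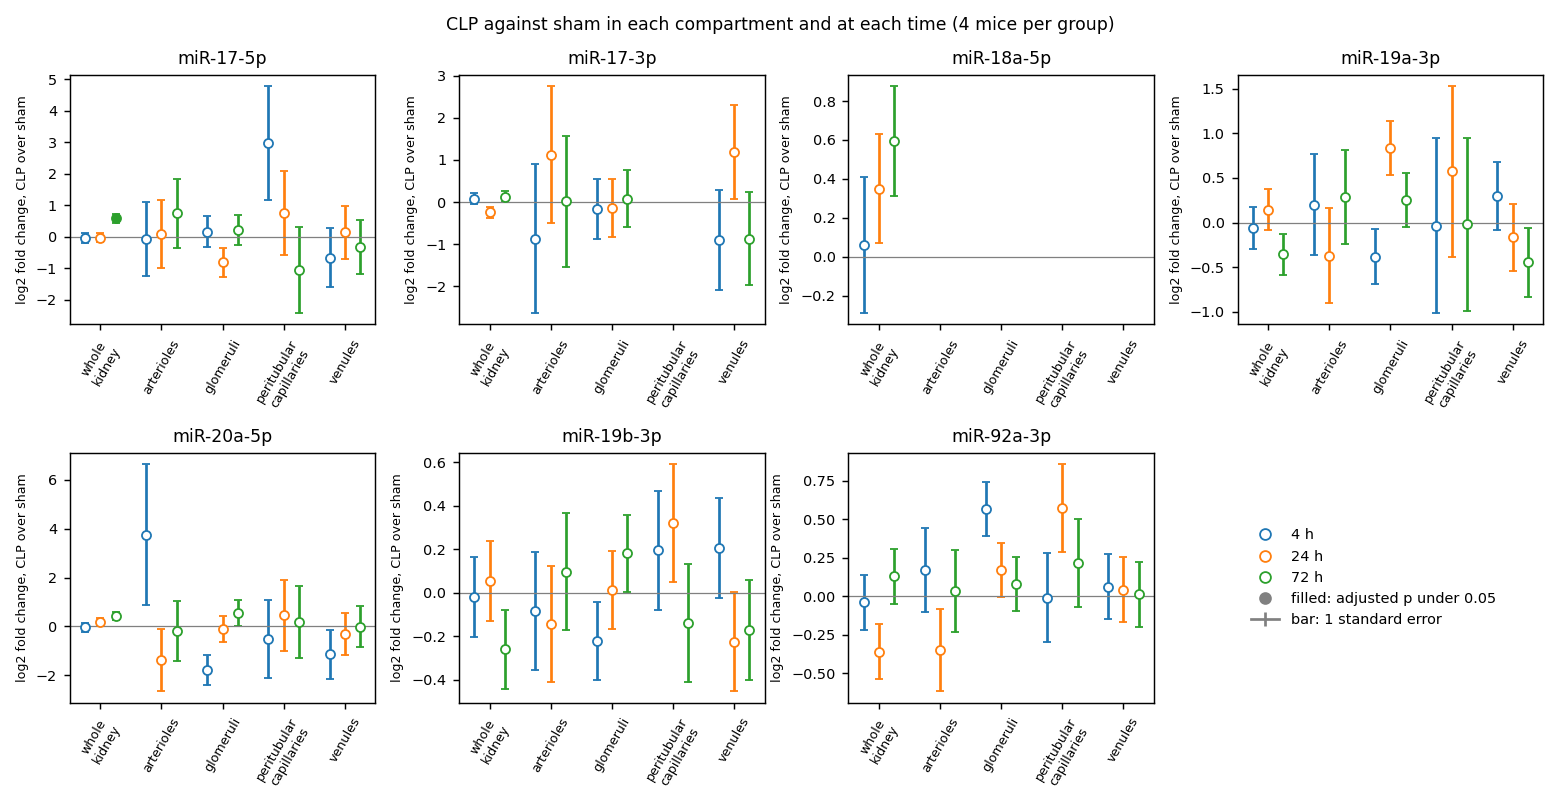
Log2 fold change of CLP over sham for each member in whole kidney and the 4 microdissected compartments at 4 h, 24 h and 72 h (4 mice per group); bars are 1 standard error, filled points have an adjusted p under 0.05, and panels have their own axes. The filled point is miR-17-5p in whole kidney at 72 h, at 0.59.

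Averaged per mouse over the 4 microdissected compartments, 0 of 21 member tests passed in limma, with 1 at an unadjusted p under 0.05, and 0.261% of all tests passed. That one was miR-92a-3p at 4 h, at 0.27 (SE 0.131, unadjusted p = 0.0444). The CLP effect differed between microdissected compartments for 0 of 21 tests in edgeR, with 0 at an unadjusted p under 0.05, where 0.087% of all tests passed. It changed between 24 h and 72 h for 0 of 30 tests in edgeR, with 2 at an unadjusted p under 0.05 and 0 called by DESeq2, and 0% of all tests passed.

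Control groups were compared with each other for the same members. Sham mice at 4 h against healthy mice gave 0 of 30 calls in edgeR and 0 in DESeq2, with 3 at an unadjusted p under 0.05, and 0.243% of all tests passed. The 3 were miR-19a-3p (-1.36) and miR-20a-5p in arterioles, where the sham group held 0 counts, and miR-92a-3p in glomeruli (-0.41). Sham mice at 72 h against sham mice at 24 h gave 0 of 30 calls in edgeR and 0 in DESeq2, with 3 at an unadjusted p under 0.05, and 0.365% of all tests passed. These were miR-17-5p and miR-17-3p (-0.37) in whole kidney and miR-19a-3p in glomeruli (0.62).

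The paralogous clusters and seed relatives, a list chosen by sequence, gave few calls of their own. At 72 h in whole kidney the seed partner of miR-92a-3p, miR-92b-3p, averaged 446 ± 45.4 CPM in CLP and 286 ± 22.5 CPM in sham mice (SD, n = 4 each), a log2 difference of 0.64 (SE 0.171, edgeR adjusted p = 0.0413). MiR-93-5p and miR-106b-5p, which carry the miR-17 seed in the miR-106b-25 cluster, were both at 0.34 and did not pass, with edgeR adjusted p = 0.129 and 0.624. MiR-106a-5p, the near-identical copy of miR-17-5p, averaged 31.6 ± 0.967 CPM in CLP and 31.6 ± 6.96 CPM in sham mice. In all compartments and times edgeR called 0 of 21 tests of the miR-106a-363 cluster (1 at an unadjusted p under 0.05, 0 by DESeq2), 0 of 36 of the miR-106b-25 cluster (2 unadjusted, 0 by DESeq2) and 1 of 18 of miR-92b-3p and miR-32-5p. The other arms of the members' hairpins gave 0 of 12 (3 unadjusted, 0 by DESeq2).

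Between compartments the abundant relatives miR-25-3p and miR-93-5p shared the low arteriole and high venule levels of miR-92a-3p. MiR-93-5p was at -0.77 in arterioles (edgeR adjusted p = 1.52e-14) and 0.71 in venules (edgeR adjusted p = 1.25e-14), and miR-25-3p at -0.43 (edgeR adjusted p = 1.33e-05) and 0.82 (edgeR adjusted p = 2.03e-15). MiR-92b-3p was instead higher in glomeruli, by 0.96 (edgeR adjusted p = 1.59e-05), and lower in whole kidney than in the microdissected compartments, at -0.87 (edgeR adjusted p = 1.04e-05). MiR-106a-5p and miR-20b-5p, the copies of miR-17-5p and miR-20a-5p, were found in all 28 whole kidney libraries at medians of 31.4 and 83.9 CPM. MiR-106a-5p had 0 counts in 25 arteriole, 23 capillary, 19 glomerular and 18 venule libraries of 28, and miR-20b-5p in 25, 20, 14 and 11, so no fold is given for them.

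The miRNAs most like the cluster's mean pattern were named by Pearson's r over the 35 group means of log2 CPM among 438 candidates. They were miR-375-3p (r = 0.88) and miR-501-5p, miR-1843a-3p, miR-31-5p and miR-532-5p (r = 0.82 each). Of the relatives miR-25-3p came 6th (r = 0.81) and miR-93-5p 8th (r = 0.80), while miR-92b-3p came 303rd (r = 0.26). The group means share mice, libraries and depth, so these values describe likeness of level only.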

How the data were processed

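The values deposited by the authors are raw read counts of mature miRNAs, unnormalized, in 1 table of 140 libraries. Libraries were prepared with a RealSeq kit, per the labels' protocols. Bowtie 1.3.0, cutadapt 3.3, FastQC 0.11.9 and MultiQC 1.10 are the tools, and GRCm38.p6 and GRCm39 the builds, that appear in the submitters' processing notes. The sources used here do not give the counting tool, the mismatches allowed or how reads matching several miRNAs were treated. Library sizes and tests leave out 10 further entries that name no miRNA. They held a mean of 5.58% of all counts in whole kidney, 78.1% in glomeruli, 84.7% in arterioles, 87.2% in venules and 97.9% in peritubular capillaries.

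Counts were tested in edgeR 4.0.16 (R 4.3.3) by the quasi-likelihood F test, two-sided, after TMM scaling and a filter on low counts (minimum count 10, minimum total 15). P-values were adjusted by Benjamini-Hochberg over all miRNAs of a comparison, with a threshold of 0.05. CLP against sham was fitted per compartment on its 28 libraries. Compartments were compared within mice with mouse as a block, 112 microdissected libraries or all 140 with whole kidney, averaged over the 7 groups. Per-mouse means of log2 CPM (prior count 2) were tested in limma 3.58.1. DESeq2 1.42.0, RLE size factors, no filter, the 10 extra entries as scale, summed copies, subsets of mice and leaving out replicates were alternatives. A fit with additive terms, pairs of compartments, whole kidney within each set of mice and compartments fitted together with whole kidney were chosen after seeing the data. Replicate numbers were not used as pairs, since deviations of libraries with the same number correlated at -0.28 to 0.28. The tests were checked on simulated data. No 2 libraries had identical counts. Each group's replicates are different mice.

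The 7 members were named for this work. Also named were the other arms of their hairpins, the paralogous clusters, the miR-92 seed and the 5 miRNAs most like the cluster. The members and lists, marker lists included, were chosen with earlier results of these data known.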

Additional observations from a re-analysis of the deposited data

Results flagged for a closer look

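In 18 of the 210 groups of 4 libraries examined, 1 library lay far from the other 3. Its gap to the nearest one, as a share of the group's range, was above Dixon's 95% critical value. A group is 1 member in 1 compartment and 1 group of mice, and not every such combination is among the 210. Chance alone gives about 1 in 20 such groups.

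In whole kidney, on the scale within that compartment, miR-17-5p stood at 395 CPM in CLP 24 h replicate 3 against 551 to 564 in the others and at 361 CPM in sham 24 h replicate 2 against 566 to 597. MiR-17-3p stood at 133 CPM in sham 4 h replicate 2 against 104 to 107, and miR-19a-3p at 705 CPM in sham 4 h replicate 1 against 253 to 327.

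In glomeruli miR-17-5p was at 175 CPM in sham 24 h replicate 1 against 276 to 293. MiR-19b-3p was at 3104 CPM in CLP 72 h replicate 1 against 4087 to 4240. MiR-92a-3p was at 20756 CPM in CLP 72 h replicate 2 against 14845 to 15810 and at 19793 CPM in healthy replicate 3 against 12209 to 12917. In venules miR-17-5p was at 144 CPM in sham 24 h replicate 1 against 331 to 365.

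In arterioles miR-17-5p was at 176 CPM in CLP 24 h replicate 1 against 20.7 to 43.7. MiR-17-3p was at 238 CPM in sham 4 h replicate 2 and at 43.1 CPM in sham 24 h replicate 4, in each case with the other 3 at 0.

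In peritubular capillaries, where a single count can weigh heavily, miR-17-5p was at 657 CPM (7 counts) in healthy replicate 3 and at 162 CPM (1 count) in sham 4 h replicate 3, with the others at 0. MiR-20a-5p was at 563 CPM (6 counts) in healthy replicate 3 against 0 to 67.4 and at 925 CPM (9 counts) in sham 4 h replicate 4, with the others at 0. MiR-19a-3p was at 658 CPM in sham 72 h replicate 2 against 414 to 455, and miR-19b-3p at 6043 CPM in CLP 72 h replicate 4 against 4551 to 4804.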

How the results depend on the processing

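Of CLP against sham, the 1 call among members became 2 with 8 libraries alone, 3 with DESeq2, 6 scaled to the 10 extra entries (which moves the median of all miRNAs in whole kidney at 72 h by 0.84) and 0 to 1 without a replicate. The extra entries as scale gave 275 of 542 miRNAs called in whole kidney at 72 h, all higher. In capillaries at 72 h they gave 49 of 201, all lower, with miR-19b-3p (-1.46) among them. DESeq2 called 22 of 542 in whole kidney at 72 h, against 10 with edgeR. Of the compartments, 10 calls became 16 with DESeq2, 16 fitted with whole kidney, 5 in healthy and 4 h mice, 3 in healthy mice and 7 to 11 without a replicate. Over all 383 miRNAs DESeq2 called 203 in arterioles, 244 in glomeruli, 244 in capillaries and 192 in venules. With edgeR these counts were 145, 205, 193 and 138. For whole kidney, 7 calls became 4 with DESeq2, 4 in healthy and 4 h mice, 2 in healthy mice and 6 to 7 without a replicate. DESeq2 called 287 of all 445 miRNAs in that comparison, against 316 with edgeR. For sham 72 h against 24 h, 0 became 1 without sham replicate 2. A replicate block gave 1 call for CLP against sham (miR-17-5p, edgeR adjusted p = 0.0461) and 0 elsewhere, as without the block, and within mice no block gave 12 and 7 calls. MiR-92a-3p kept its call in arterioles, venules and whole kidney under every alternative run, and in glomeruli under all but 1. The sign turned for miR-19a-3p at 72 h in whole kidney with the extra entries (0.49). In arterioles it turned for miR-17-3p (0.037) and miR-17-5p (0.15) in healthy and 4 h mice, and in healthy mice for miR-17-5p (0.10) and miR-19a-3p (0.34). In capillaries it turned for miR-19a-3p, which was near 0, in 24 h and 72 h mice (0.090), with DESeq2 (0.27), RLE (0.23), whole kidney in the fit (0.49), no filter (0.014), no block (0.037) and without a replicate (-0.14 to 0.064), for miR-18a-5p in 24 h and 72 h mice (0.61), for miR-20a-5p without a replicate (-0.11 to 1.14) and for miR-92a-3p in healthy and 4 h mice (-0.057) and healthy mice (-0.066). In venules it turned for miR-17-5p in healthy mice (-0.061) and for miR-19b-3p, which was near 0, in 24 h and 72 h mice (-0.017), healthy mice (-0.10), with additive terms (-0.0017), no filter (-0.020), no block (-0.00081) and without a replicate (-0.082 to 0.014). In glomeruli it turned for miR-18a-5p in 24 h and 72 h mice (-0.57) and miR-19b-3p with whole kidney in the fit (-0.12), and for miR-19b-3p in whole kidney with DESeq2 and RLE (-0.080 and -0.082) and healthy mice (-0.19). MiR-17-5p in capillaries also differed in sign between the sets, at -1.42 in healthy and 4 h mice and 0.44 in 24 h and 72 h mice. It passed the test in neither. The cause of these shifts was not tested. Depth limits miR-18a-5p, miR-17-3p and miR-20a-5p in microdissected libraries.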
